A study of Mus musculus with 9 samples.

Results

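The effect of a transgene named TG-AMH-LXRb was examined in mice with knockouts of both liver X receptor genes. Transgenic libraries were compared with double knockout libraries over all genes whose RPKM (reads per kilobase of gene, scaled to library size) reached 1 or more in 3 or more of the 6 libraries. This rule kept 15910 of the 54838 genes in the deposited matrix, and 6 of the 9 libraries of the study. Gene expression had been measured by RNA sequencing in corona radiata, the innermost layer of the cumulus granulosa cells around the oocyte, collected from adult mice stimulated with PMSG and hCG. PMSG acts as a follicle-stimulating hormone and hCG as an ovulatory luteinizing hormone signal. Both genotypes carried the labelled DKO LXR background, so the endogenous receptor genes were knocked out in every library of the comparison. The 3 control libraries (LXR DKO) had the double knockout alone, and the 3 transgenic libraries had it together with TG-AMH-LXRb. The 3 wild-type (WT) libraries entered no test and are given as a reference. The labels do not describe the promoter, the coding sequence or the founder line of the transgene, nor which parts of the receptor genes were deleted. They do not say that libraries came from separate animals or whether animals were pooled. The p-values therefore describe the spread among these libraries alone, and that spread may be technical.

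Liver X receptors belong to the nuclear receptors. They bind oxysterols, pair with retinoid X receptors (RXR) and switch on genes for cholesterol export, lipoprotein remodelling and fatty acid synthesis. LXR alpha is encoded by Nr1h3 and LXR beta by Nr1h2. In the ovary they act in granulosa and luteal cells, which take up lipoprotein cholesterol and turn it into progesterone. Amh encodes anti-Müllerian hormone, a product of granulosa cells of growing follicles. Caveolins, the products of Cav1 and Cav2, coat flask-shaped pits of the plasma membrane called caveolae, which are rich in cholesterol.

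Marker genes were read beside the tissue label. Of 12 cumulus and granulosa markers 11 passed the filter. So did 16 of 17 oviduct secretory and 15 of 18 macrophage markers, so passing the filter cannot tell the tissue. Cyp11a1, the enzyme of the first step of steroid synthesis, measured 1860, 1530 and 1635 RPKM in LXR DKO 1, 2 and 3. In transgenic 1, 2 and 3 it measured 1609, 1463 and 1470 RPKM. Below, 3 values in a row are in this replicate order. Reads in genes, worked back from the RPKM values, ranged from 29822412 to 44049966 in the 6 libraries, and 3 reads on a gene with 1 kb of exons correspond to 0.0647 to 0.0965 RPKM. LXR DKO 1 stood apart by its oocyte RNA: the 22 oocyte markers summed to 859 RPKM there, against 18.6 to 124 RPKM in the other 5 libraries. Oviduct and macrophage markers also differed between the genotypes and are described with their gene groups.

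At an adjusted p under 0.05 (limma on log2(RPKM + 1), Benjamini-Hochberg adjustment over all 15910 genes), 54 genes were higher in the transgenic libraries (0.339% of the genes tested) and 44 were lower (0.277%). In each of these 98 genes the 3 transgenic values did not overlap the 3 LXR DKO values. Among all genes tested, 11.3% had all transgenic values above and 6.88% had them below the LXR DKO values. The threshold favours such genes, so the lack of overlap is no separate evidence for a call. By an unadjusted p under 0.05, 2200 genes differed, 1513 higher and 687 lower. The log2 fold change (transgenic minus LXR DKO, given with its standard error) was above 1 for 30 of the higher genes and below -1 for 24 of the lower genes, and its median over all genes was 0.014. Because 1 is added to each RPKM value before the logarithm, these fold changes understate the change of low genes. The lower side held the largest change, that of Cav1, and the higher side was led among named genes by Gpx3.

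**Figure D1:**
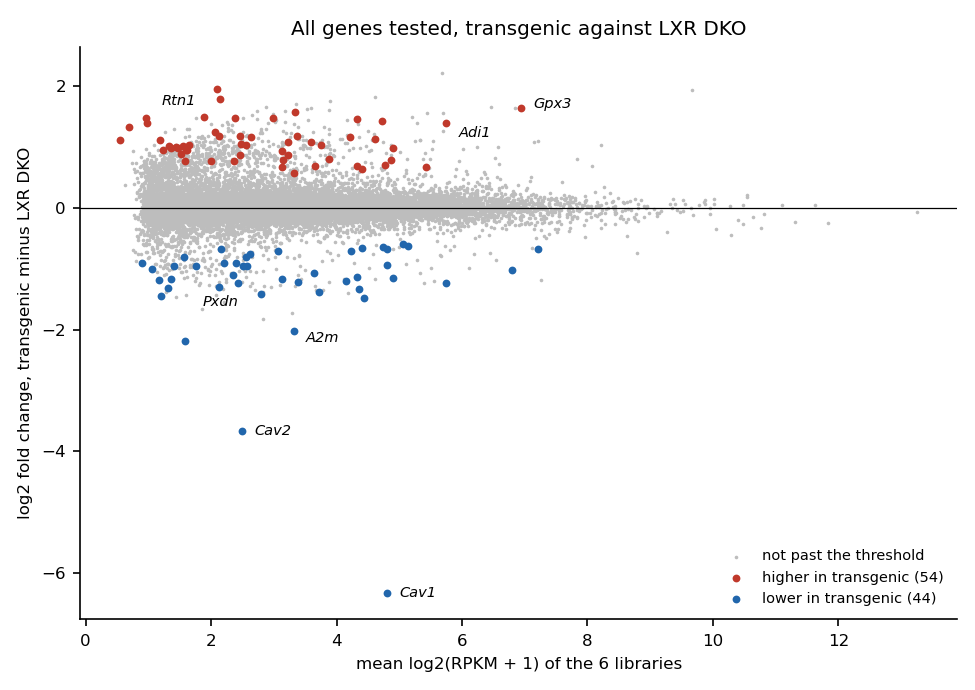
Log2 fold change of each of 15910 genes (transgenic minus LXR DKO, y axis) against its mean log2(RPKM + 1) over the 6 libraries (x axis). Red points are the 54 genes higher in transgenic libraries, blue points the 44 lower and grey points the genes not past the threshold. Cav1 and Cav2 lie far below all other genes.

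The number of genes called depended on single libraries. Without LXR DKO 1, the library with oocyte RNA, 92 genes were higher and 110 lower, and 48 of the 54 and 41 of the 44 were among them. Without LXR DKO 2 the counts were 130 and 41, without LXR DKO 3 they were 6 and 6, without transgenic 1 they were 7 and 6, without transgenic 2 they were 19 and 14, and without transgenic 3 they were 7 and 10. Of the 98 genes, 11 passed in all 6 omissions. They were Gpx3, Adi1, Prnp and 3 genes with provisional names on the higher side, and Cav2, A2m, Pxdn, Zfp983 and the pseudogene Zfp125 on the lower side, and of these Prnp and Zfp125 were chosen after their values were seen. The other 87 lost their call in at least 1 omission, and where an adjusted p is given below as reached in omissions, it is the highest of the 6.

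Of the receptor genes, Nr1h2 measured 3.57, 2.85 and 3.03 RPKM in LXR DKO against 4.83, 5.28 and 6.70 RPKM in the transgenic libraries. All 3 transgenic values lay above the LXR DKO values, and all 6 lay far below the WT values of 45.7, 39.7 and 39.7 RPKM. The means of 3.15 ± 0.373 and 5.60 ± 0.974 RPKM (SD, n = 3) differed by 0.66 ± 0.13 on the log2 scale, which did not pass the threshold (limma adjusted p = 0.0823). The values rested on 320 to 502 reads in LXR DKO and 550 to 762 in transgenic libraries. Reads of a transgene transcript are counted here only where it carries annotated exons of the mouse gene, so these values do not give the level of the transgene product. Nr1h3 measured 1.08, 0.713 and 0.933 RPKM in LXR DKO against 0.395, 0.819 and 0.539 RPKM in the transgenic libraries, and Amh had 56, 17 and 22 reads in LXR DKO against 16, 7 and 23 in the transgenic libraries. Neither reached the filter, and both genotypes overlapped in each. Rxra, the RXR alpha partner gene, measured 6.09, 6.73 and 6.52 RPKM in LXR DKO against 6.85, 6.93 and 6.59 RPKM in the transgenic libraries (0.07 ± 0.09, adjusted p = 0.841). Of 16 receptor, RXR and coregulator genes 14 were tested and 0 passed the threshold, with a median log2 fold change of 0.016. By an unadjusted p under 0.05 there was 1, Nr1h2, which was higher (9.51% of all genes were).

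None of the 18 tested genes on the list of LXR targets passed the threshold in either direction. The list has 23 members and does not hold every gene reported to be switched on by these receptors. Lipid genes outside it were called in both directions, Gramd1b higher and Akr1b7 and Cd36 lower, and are given below. The count of this list therefore does not speak for all genes these receptors may control. Of the 18 there were 3 with positive and 15 with negative log2 fold changes, and the median was -0.12. With voom, which models reads worked back from the RPKM values, 0 passed as well. At an unadjusted p under 0.05, 5 were lower (4.32% of all genes were) and 0 higher (9.51% of all genes were), and 6 had transgenic values below all LXR DKO values (6.88% of all genes did) while 0 had them above (11.3% of all genes did). Abca1, the exporter that loads cholesterol onto apolipoprotein A-I, measured 14.6, 20.5 and 18.01 RPKM in LXR DKO against 13.8, 16.3 and 18.8 RPKM in the transgenic libraries (-0.11 ± 0.15, adjusted p = 0.851). Its values overlapped between the genotypes.

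Abcg1, a second cholesterol exporter gene, measured 2.04, 1.43 and 5.06 RPKM in LXR DKO against 0.732, 0.894 and 1.30 RPKM in the transgenic libraries. LXR DKO 3 lay apart from the other 2 LXR DKO libraries, and the difference of -0.86 ± 0.32 did not pass (limma adjusted p = 0.279). Mylip, a ubiquitin ligase gene, measured 1.42, 1.37 and 1.86 RPKM against 1.55, 2.04 and 2.49 RPKM, and 3.09, 4.71 and 5.29 RPKM in WT. The lipoprotein lipase gene Lpl measured 8.68, 9.18 and 10.98 RPKM in LXR DKO against 6.48, 5.63 and 6.24 RPKM in the transgenic libraries (-0.57 ± 0.11, adjusted p = 0.0752), and 20.4, 18.7 and 13.3 RPKM in WT. Apoe, whose product carries cholesterol in lipoproteins, measured 197, 214 and 169 RPKM against 125, 145 and 136 RPKM (-0.50 ± 0.11, adjusted p = 0.096), and 246, 276 and 424 RPKM in WT. In Lpl and Apoe the transgenic values were the lowest of the 3 genotypes without overlap. Macrophages, whose markers were lower in the same libraries, also express Apoe, Lpl and Abcg1, and the part of these cells in the values was not tested. The lipogenic genes Srebf1 (-0.12 ± 0.11, adjusted p = 0.724) and Scd1 (-0.43 ± 0.15, adjusted p = 0.244) and the phospholipid remodelling gene Lpcat3 (-0.23 ± 0.09, adjusted p = 0.292) did not pass either.

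**Figure D2:**
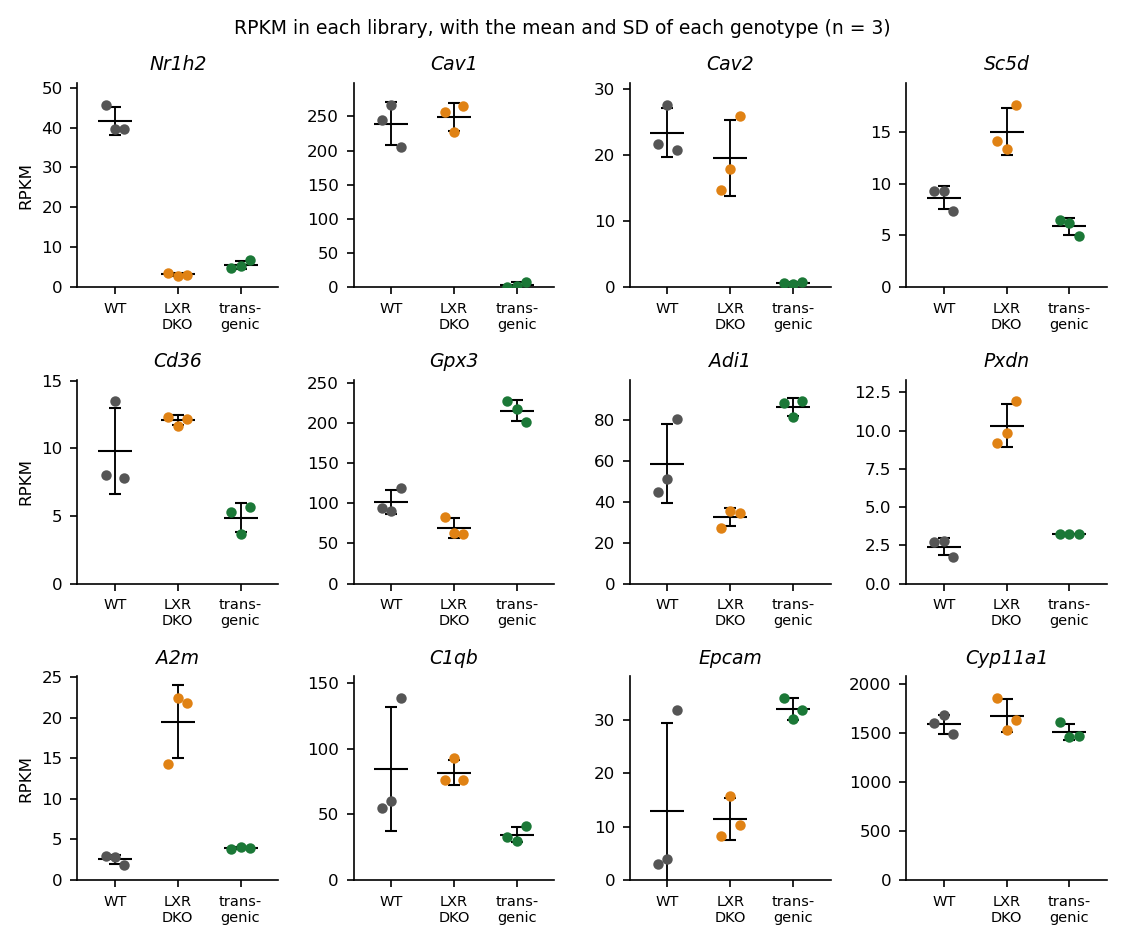
RPKM (y axis, from 0) of 12 genes in each WT, LXR DKO and transgenic library (x axis), with the mean and SD of 3 libraries. A bar that would reach below 0 ends at the axis. Cav1 and Cav2 are near 0 in the transgenic libraries alone, Gpx3 is highest there, A2m and Pxdn are high in LXR DKO alone, and Cyp11a1 overlaps between the genotypes.

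The caveolin genes Cav1 and Cav2 were almost lost from the transgenic libraries. Cav1 (ENSMUSG00000007655, mm10 chromosome 6, 17306335 to 17341452, plus strand) measured 256, 226.6 and 266 RPKM in LXR DKO against 245, 267 and 205 RPKM in WT. In transgenic libraries it measured 0.739, 0.934 and 7.97 RPKM, from 118, 100 and 931 reads, where the LXR DKO libraries had 37021, 26114 and 31569 reads. Every transgenic value was below every other value, and transgenic 3 was the highest of the 3. The mean fell from 249.5 ± 20.4 to 3.21 ± 4.12 RPKM (SD, n = 3), a ratio of 77.6 in linear RPKM, with a log2 fold change of -6.33 ± 0.57 (limma adjusted p = 0.00661). The adjusted p ranged from 6e-06 without transgenic 3 to 0.0717 without LXR DKO 3, where the call was lost at a log2 fold change of -6.28. The call was also lost with no filter on low values (adjusted p = 0.0707) and with a replicate block (adjusted p = 0.0511).

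Cav2 (ENSMUSG00000000058, chromosome 6, 17281185 to 17289115, plus strand) lies just before Cav1 and encodes the caveolin that forms mixed coats with it. It measured 14.8, 17.9 and 26.01 RPKM in LXR DKO, 0.537, 0.482 and 0.751 RPKM in transgenic libraries and 21.8, 27.7 and 20.8 RPKM in WT. The transgenic values rested on 83, 50 and 85 reads. The mean fell from 19.6 ± 5.80 to 0.590 ± 0.142 RPKM, a linear ratio of 33.2 (-3.66 ± 0.20, limma adjusted p = 0.00225). The call held in all 6 omissions, with an adjusted p of at most 0.0276.

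The end of Cav2 and the start of Cav1 are 17.2 kb apart. The 250 bases before each start are printed because these were the 2 genes that fell most and they are neighbours. They are from RefSeq on GRCm38.p6, the build also called mm10, 5′ to 3′ on the plus strand, chr6:17280935-17281184 for Cav2 and chr6:17306085-17306334 for Cav1, where the first of 2 listed starts was used. Capitals mark a match on either strand to GGGCGG, the GC box bound by SP1-type factors, which 32.7% of 32851 RefSeq windows of the same length hold.
Cav2: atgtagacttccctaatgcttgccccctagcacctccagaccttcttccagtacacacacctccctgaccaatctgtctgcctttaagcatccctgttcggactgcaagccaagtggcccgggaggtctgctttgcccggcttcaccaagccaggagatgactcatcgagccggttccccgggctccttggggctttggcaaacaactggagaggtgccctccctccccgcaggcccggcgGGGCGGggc
Cav1: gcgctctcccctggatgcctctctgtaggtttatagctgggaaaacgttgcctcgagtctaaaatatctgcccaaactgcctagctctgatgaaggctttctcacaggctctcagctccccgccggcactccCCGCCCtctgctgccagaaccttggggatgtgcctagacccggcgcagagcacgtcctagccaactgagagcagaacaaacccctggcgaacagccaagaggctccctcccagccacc
Each window held 1 match to the GC box. Neither held the DR4 element (AGGTCA repeated with 4 bases between, on either strand), which LXR-RXR pairs bind and which 0.0152% of the windows hold.

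Within 1 Mb of the Cav1 start 9 other genes were tested and 1 passed the threshold (0.616% of all genes did). It was Cftr, the chloride channel gene of epithelia, which starts 864.4 kb away and was higher (1.18 ± 0.16, limma adjusted p = 0.0295). Its adjusted p reached 0.146 in omissions. In WT it measured 0.301, 0.362 and 2.23 RPKM, the last in WT 3, the WT library with most oviduct RNA. The cytoskeletal gene Tes, which starts 241.2 kb before Cav1, measured 63.2, 61.8 and 53.1 RPKM in LXR DKO against 41.8, 50.8 and 40.6 RPKM in the transgenic libraries (-0.41 ± 0.11, adjusted p = 0.151). Of these 9 genes 3 had transgenic values below all LXR DKO values (6.88% of all genes did), Tes and Capza2 among them, and none of the 3 passed. The same held for 3 of the 5 genes that were too low to be tested and reached 0.5 RPKM in a library. On the other side of Cav1, the growth factor receptor gene Met at 157.5 kb (-0.21 ± 0.16, adjusted p = 0.663), the actin capping gene Capza2 at 329.9 kb (-0.32 ± 0.08, adjusted p = 0.139) and St7 at 386.6 kb (-0.06 ± 0.11, adjusted p = 0.888) did not pass.

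**Figure D3:**
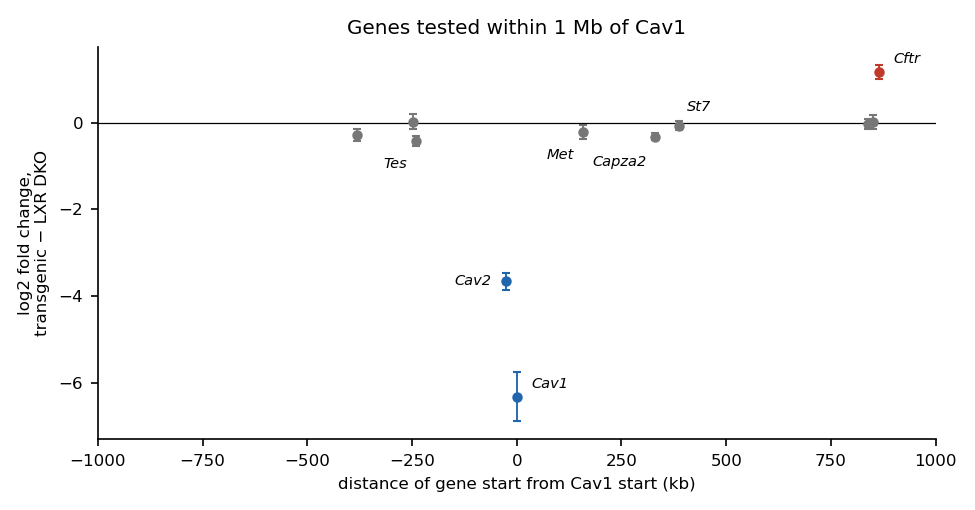
Log2 fold change with its standard error (y axis) of the 11 genes tested within 1 Mb of Cav1, by the distance of each gene start from the Cav1 start in kb (x axis). Blue marks genes lower, red genes higher and grey genes not past the threshold in transgenic libraries. Cav1 and Cav2 are near -6.33 and -3.66, and no other gene is below -0.5.

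The remaining genes of caveolae did not pass. Of 11 listed genes 9 were tested, Cav1 and Cav2 fell (0.277% of all genes did) and 7 did not pass. Cavin1, which encodes the coat protein that caveolae need beside caveolin, measured 34.7, 13.2 and 23.1 RPKM in LXR DKO against 26.7, 17.1 and 24.7 RPKM in the transgenic libraries (0.03 ± 0.32, limma adjusted p = 0.987). Its values overlapped, as did those of the coat gene Cavin2 (0.65 ± 0.38, adjusted p = 0.552) and of Pacsin2, which encodes a membrane-bending protein of caveolae (-0.09 ± 0.09, adjusted p = 0.765). Caveolin is also abundant in endothelium and stroma. The 12 endothelial markers summed to 5.04 to 7.15 RPKM in LXR DKO and 5.51 to 6.66 RPKM in transgenic libraries, and the 10 stromal markers to 4.12 to 11.6 and 9.77 to 14.2 RPKM. The ranges of the genotypes overlapped for both lists, and the part of these cells in the Cav1 and Cav2 values was not tested. Since RNA was taken from a mixture of cells, fewer cells of a type and less RNA per cell cannot be told apart in any result here.

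Genes of sterol and lipid handling held 3 listed members that fell. Sc5d, the sterol desaturase of a late step of cholesterol synthesis, measured 14.1, 13.4 and 17.6 RPKM in LXR DKO against 6.53, 6.17 and 4.89 RPKM in the transgenic libraries. The transgenic values were below all others, WT included (9.32, 9.32 and 7.35 RPKM). The log2 fold change was -1.22 ± 0.14 (limma adjusted p = 0.017, and up to 0.0911 when 1 library was left out). It was the only 1 of 24 cholesterol synthesis genes to pass, against 0.277% of all genes that were lower, and the median of the 24 was -0.06. Hmgcs1, the synthase of an early step, overlapped between the genotypes (-0.19 ± 0.15, limma adjusted p = 0.679). Dhcr7, the reductase that acts after Sc5d, measured 36.7, 35.5 and 38.4 RPKM against 31.3, 28.6 and 26.6 RPKM, which did not overlap and did not pass (-0.34 ± 0.09, adjusted p = 0.121).

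Of 22 tested genes of sterol uptake, transport and lipid droplets, 2 fell, 0 rose and 20 did not pass, with a median of -0.10 (0.277% of all genes fell). In 6 of them every transgenic value was below every LXR DKO value (6.88% of all genes). Cd36, a scavenger receptor and fatty acid transporter, measured 12.4, 11.7 and 12.2 RPKM in LXR DKO against 5.30, 3.67 and 5.67 RPKM in the transgenic libraries (-1.17 ± 0.14, limma adjusted p = 0.0243). Plin2, the coat protein of lipid droplets, measured 43.0, 44.6 and 40.9 RPKM in LXR DKO against 27.95, 25.9 and 28.4 RPKM in the transgenic libraries (-0.63 ± 0.08, adjusted p = 0.0243). Neither gene overlapped between these genotypes. WT spanned 7.85 to 13.5 RPKM for Cd36 and 28.5 to 52.2 RPKM for Plin2. Both calls were lost in omissions of 1 library, with an adjusted p of up to 0.122 for Cd36 and 0.131 for Plin2. Scarb1, the HDL receptor gene, did not pass (-0.20 ± 0.14 on the log2 scale, adjusted p = 0.652).

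The 250 bases before a start of Cd36 and of Plin2, the pair of lipid genes of that list that fell, are printed with capitals at AGGTCA on either strand, the half-site of many nuclear receptors, which is also part of the DR4 element and which 4607 of the 32851 windows hold. They are RefSeq sequences on GRCm38.p6 before the RefSeq start, 5′ to 3′ on the minus strand, chr5:17835897-17836146 for Cd36 and chr4:86670060-86670309 for Plin2. The single RefSeq start listed for Cd36 lies inside the longer gene model used for counting, which spans 17781690 to 17888801, so its window is within that model.
Cd36: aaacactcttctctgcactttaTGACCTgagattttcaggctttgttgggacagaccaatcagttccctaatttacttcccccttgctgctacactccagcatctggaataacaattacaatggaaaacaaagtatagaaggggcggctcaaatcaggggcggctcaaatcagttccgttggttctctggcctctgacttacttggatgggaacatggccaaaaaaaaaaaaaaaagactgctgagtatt
Plin2: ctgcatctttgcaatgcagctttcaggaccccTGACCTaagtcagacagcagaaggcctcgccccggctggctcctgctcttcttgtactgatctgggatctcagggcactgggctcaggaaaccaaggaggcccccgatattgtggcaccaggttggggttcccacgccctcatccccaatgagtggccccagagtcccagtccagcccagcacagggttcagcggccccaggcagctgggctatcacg
Each window held 1 half-site, and neither held the DR4 element.

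Other lipid genes were called outside these lists and were chosen here after their values were seen, except Akr1b7, which the rule for naming gave. Gramd1b, which encodes a sterol carrier between the plasma membrane and the endoplasmic reticulum, rose from 7.21, 9.93 and 8.42 RPKM in LXR DKO to 17.01, 19.6 and 18.3 RPKM in transgenic libraries. The 3 WT values of 7.56, 7.31 and 5.69 RPKM lay near or below those of LXR DKO. Its log2 fold change was 1.03 ± 0.12 (limma adjusted p = 0.0211, and up to 0.109 in omissions). Akr1b7, an aldose reductase gene, fell from 6.78, 4.41 and 6.63 RPKM to 1.80, 2.01 and 1.54 RPKM (-1.30 ± 0.16, adjusted p = 0.0243, up to 0.131), with 0.904, 1.60 and 0.431 RPKM in WT. Neither of these genes overlapped between LXR DKO and transgenic libraries.

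The genes of 2 secreted antioxidant enzymes rose. Gpx3 (ENSMUSG00000018339, chromosome 11, 54902453 to 54910377), the secreted glutathione peroxidase, measured 83.0, 63.1 and 61.5 RPKM in LXR DKO against 227, 217 and 202 RPKM in the transgenic libraries. These were the highest values of the 3 genotypes, above 94.5, 90.8 and 119 RPKM in WT. The mean rose from 69.2 ± 11.98 to 215 ± 12.8 RPKM, a linear ratio of 3.11 (1.64 ± 0.13, limma adjusted p = 0.00461), and the call held in all 6 omissions (adjusted p of at most 0.0465). Gpx3 was the only 1 of 30 tested NRF2 and glutathione genes to pass, against 0.339% of all genes that were higher. The median of the 30 was 0.13. Sod3, the extracellular superoxide dismutase, rose from 3.34, 4.09 and 3.82 RPKM to 9.39, 13.8 and 13.7 RPKM (1.47 ± 0.16, adjusted p = 0.0147, up to 0.0911 in omissions). In WT it measured 0.954, 0.983 and 10.1 RPKM, the last in the WT library with most oviduct RNA.

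Adi1, an enzyme of methionine salvage, rose from 27.2, 35.3 and 34.3 RPKM in LXR DKO to 88.2, 81.1 and 88.9 RPKM in transgenic libraries, with 44.5, 50.8 and 80.3 RPKM in WT. Transgenic and LXR DKO values were far apart, and the mean rose 2.67-fold in linear RPKM (1.40 ± 0.11, limma adjusted p = 0.00461, at most 0.0465 in omissions). Prnp, the prion protein gene, rose from 20.3, 20.9 and 19.6 RPKM to 42.3, 40.2 and 40.2 RPKM (0.98 ± 0.07, adjusted p = 0.00461, at most 0.0465 in omissions). In WT it measured 16.1, 16.025 and 37.96 RPKM, so that WT 3 was near the transgenic level, and the call was lost with all 9 libraries in the fit (adjusted p = 0.338). Rps2, a protein of the small ribosomal subunit, rose from 21.5, 21.9 and 20.1 RPKM to 36.3, 38.4 and 37.4 RPKM (0.79 ± 0.07, adjusted p = 0.00812, up to 0.0718 in omissions), with 19.7, 19.8 and 19.9 RPKM in WT. It was the only 1 of 30 cytosolic ribosomal protein genes to pass (0.339% of all genes rose). Of the 30, 29 had positive log2 fold changes (53.6% of all genes did), with a median of 0.12. Ribosomal protein genes have many processed copies in the genome, so their values are uncertain where reads could be assigned to a copy.

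Markers of the oviduct lining were among the genes that rose. Of 17 markers of oviduct secretory epithelium 16 were tested and 3 rose, against 0.339% of all genes. All 16 had positive log2 fold changes with a median of 1.19, and in 12 of them every transgenic value was above every LXR DKO value (11.3% of all genes). Epcam, an epithelial adhesion gene, rose from 8.20, 15.8 and 10.4 RPKM to 34.2, 30.2 and 31.9 RPKM (1.45 ± 0.20, limma adjusted p = 0.0314). The tight junction gene Cldn3 rose from 12.3, 20.03 and 13.9 RPKM to 40.7, 41.0 and 46.1 RPKM (1.43 ± 0.16, adjusted p = 0.0187). Cdh1, the E-cadherin gene, rose from 11.5, 14.9 and 8.86 RPKM to 30.4, 24.2 and 26.5 RPKM (1.16 ± 0.17, adjusted p = 0.0425). None of the 3 overlapped between the genotypes. Without LXR DKO 3 or any 1 transgenic library 0 of the 16 passed, and without LXR DKO 2 there were 6. Without LXR DKO 1 there were 3, while Cdh1 lost its call (adjusted p = 0.0556). Ovgp1, the oviduct glycoprotein and the most abundant member, measured 226, 655 and 477 RPKM in LXR DKO against 1266, 1857 and 1679 RPKM in the transgenic libraries without passing (1.93 ± 0.36, adjusted p = 0.071). It passed when LXR DKO 1 or LXR DKO 2 was left out (limma adjusted p = 0.0325 and 0.038), and not in the other omissions (up to 0.255).

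The summed RPKM of the 17 oviduct markers was 652, 1331 and 942 in LXR DKO, 2158, 2785 and 2810 in transgenic libraries and 466, 422 and 2324 in WT. The lowest transgenic sum was above the highest LXR DKO sum, and WT 3 was at the transgenic level. No marker was at 0 in all 6 libraries. WT 3 was at least 2-fold above both other WT libraries in 27 of the 54 higher genes (50.0%), in 3 of the 44 lower genes (6.82%) and in 6.82% of all genes tested. The part of oviduct RNA in the 54 calls was not tested. Of 23 markers of ciliated epithelium, the other cell type of the oviduct lining, 17 were tested and 0 passed. All 17 had positive log2 fold changes with a median of 0.93. By an unadjusted p under 0.05, 8 were higher (9.51% of all genes were). In 4 of the 17 every transgenic value was above every LXR DKO value (11.3% of all genes). Foxj1, the regulator gene of motile cilia, measured 5.16, 9.24 and 6.87 RPKM against 19.1, 7.16 and 24.6 RPKM, so that transgenic 2 lay within the LXR DKO range (1.02 ± 0.41, limma adjusted p = 0.313). The ciliated sums were 173, 384 and 253 RPKM in LXR DKO against 568, 267 and 653 RPKM in the transgenic libraries.

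Several other genes with large rises were highest in WT 3 among the WT libraries. Enpp2, the enzyme that makes lysophosphatidic acid, rose from 2.29, 2.95 and 2.69 RPKM to 7.70, 6.98 and 7.18 RPKM, with 0.472, 0.294 and 3.86 RPKM in WT (1.19 ± 0.11, limma adjusted p = 0.00661, up to 0.0718 in omissions). Rtn1, a reticulon of the endoplasmic reticulum, rose from 0.699, 1.70 and 1.33 RPKM to 5.05, 4.52 and 6.05 RPKM, with 0.287, 0.575 and 6.48 RPKM in WT (1.49 ± 0.19, adjusted p = 0.0243). Spint2, a protease inhibitor gene of epithelia, rose from 13.4, 19.2 and 14.2 RPKM to 36.98, 31.6 and 37.1 RPKM, with 10.5, 9.81 and 37.6 RPKM in WT (1.14 ± 0.14, adjusted p = 0.0243). The remaining genes of the 15 largest rises, Fndc7, Atp13a5, Hs3st6, Gprc5c, Cftr and Tmc4, had log2 fold changes of 1.16 to 1.57 and adjusted p-values of 0.013 to 0.0459, and each lost its call in at least 1 omission. Pax8, a transcription factor gene of oviduct secretory cells, measured 1.42, 3.98 and 3.18 RPKM against 4.74, 5.53 and 10.1 RPKM (1.01 ± 0.32, adjusted p = 0.214).

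**Figure D4:**
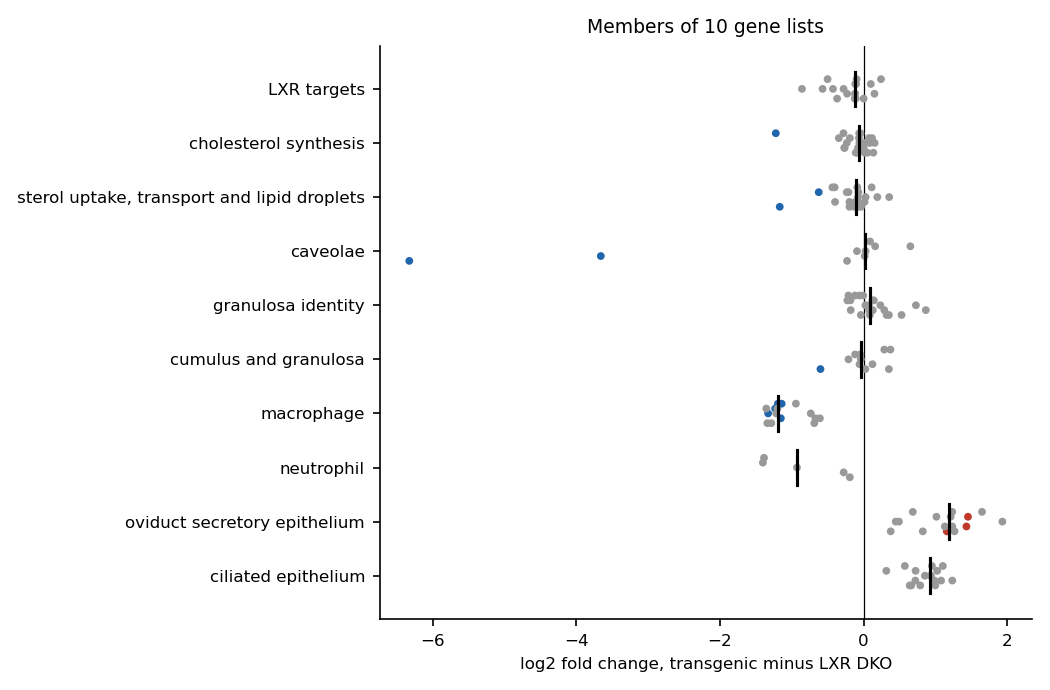
Log2 fold change (x axis, transgenic minus LXR DKO) of each tested member of 10 gene lists (rows), with a black bar at the median. Red points rose, blue points fell and grey points did not pass the threshold. Macrophage members are all negative (median -1.19), oviduct secretory members all positive (median 1.19), and LXR targets lie around -0.12.

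Macrophage and complement genes were lower. Of 18 macrophage markers 15 were tested and 5 fell, against 0.277% of all genes. All 15 had negative log2 fold changes with a median of -1.19, and in 13 of them every transgenic value was below every LXR DKO value (6.88% of all genes). The genes of the 3 chains of complement C1q, made mainly by macrophages, fell together. C1qb measured 76.2, 93.0 and 76.5 RPKM in LXR DKO against 32.9, 29.6 and 40.9 RPKM in the transgenic libraries (-1.23 ± 0.14, limma adjusted p = 0.016). C1qa fell by 1.33 ± 0.18 (adjusted p = 0.0296) and C1qc by 1.19 ± 0.15 (adjusted p = 0.0243). The lysosomal glycoprotein gene Cd68 fell from 39.5, 39.9 and 53.2 RPKM to 21.1, 16.3 and 20.3 RPKM (-1.15 ± 0.15, adjusted p = 0.0243), and the adaptor gene Tyrobp from 21.99, 36.3 and 30.1 RPKM to 12.5, 11.4 and 13.8 RPKM (-1.14 ± 0.17, adjusted p = 0.0434). Without LXR DKO 1 there were 10 called markers, without LXR DKO 2 there were 4, without transgenic 2 or 3 there were 2, and without LXR DKO 3 or transgenic 1 there were 0.

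The macrophage receptor genes Adgre1 and Csf1r did not pass. Adgre1, which encodes F4/80, measured 10.8, 13.7 and 21.7 RPKM in LXR DKO against 6.36, 4.04 and 6.35 RPKM in the transgenic libraries (-1.29 ± 0.25, limma adjusted p = 0.0797). Csf1r, the receptor of the macrophage growth factor, measured 12.5, 25.5 and 30.8 RPKM against 6.64, 7.74 and 12.6 RPKM (-1.22 ± 0.34, adjusted p = 0.155), and its values overlapped. Both passed when LXR DKO 1 was left out (adjusted p = 0.0459 and 0.0415). Lyz2, the lysozyme gene and the most abundant member, measured 423, 896 and 492 RPKM against 330, 296 and 412 RPKM (-0.74 ± 0.28, adjusted p = 0.282). The summed RPKM of the 18 markers was 756, 1445 and 951 in LXR DKO against 510, 454 and 654 in the transgenic libraries, without overlap, and 638, 723 and 1469 in WT. No marker was at 0 in all 6 libraries. The part of macrophage RNA in the lower genes was not tested.

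Other immune genes of the lower side were Cfp, Ccl8, Cd79a and H2-D1. Cfp, which encodes the complement regulator properdin, fell from 29.3, 46.6 and 31.8 RPKM to 10.1, 10.7 and 15.6 RPKM (-1.48 ± 0.21, limma adjusted p = 0.0321). The chemokine gene Ccl8 fell from 2.52, 2.22 and 2.38 RPKM to 0.338, 0.567 and 0.577 RPKM (-1.18 ± 0.12, adjusted p = 0.0128). The B cell receptor gene Cd79a fell from 1.62, 1.80 and 2.51 RPKM to 0.504, 0.331 and 0.607 RPKM (-1.001 ± 0.15, adjusted p = 0.0422), and the other 3 lymphocyte markers tested did not pass. H2-D1, a class I histocompatibility gene, fell by 0.67 ± 0.10 (adjusted p = 0.0456), as 1 of 16 antigen presentation genes tested, of which 12 were negative, with a median of -0.31 (0.277% of all genes fell). At an unadjusted p under 0.05, 9 of the 16 were lower and 0 higher, and 9 had transgenic values below all LXR DKO values (6.88% of all genes did). The class II invariant chain gene Cd74 differed most (-1.19 ± 0.25, adjusted p = 0.0903). All 4 calls were lost without LXR DKO 3, with adjusted p-values of 0.0911 to 0.14, and that of H2-D1 in each of the 6 omissions. Neutrophil markers (5 tested, median -0.93) and erythroid markers (5 tested, median -0.76) had 0 members past the threshold in limma. So had interferon response genes (27 tested, median 0.20) and inflammatory cytokine and NF-kB genes (22 tested, median -0.22). At an unadjusted p under 0.05, 4 neutrophil, 0 erythroid and 3 cytokine and NF-kB genes were lower (4.32% of all genes were). At the same level 3 interferon response genes were higher (9.51% of all genes were). All 5 neutrophil markers had negative log2 fold changes, and 4 had transgenic values below all LXR DKO values (6.88% of all genes did). The cytokine gene Il1b measured 4.21, 12.8 and 8.45 RPKM against 2.13, 3.31 and 4.90 RPKM (-1.03 ± 0.37, adjusted p = 0.257), and its values overlapped.

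Among granulosa identity, progesterone and ovulation genes 1 passed, Vcan. Of 22 granulosa identity genes tested 0 passed, with a median of 0.08. By an unadjusted p under 0.05, 4 were higher (9.51% of all genes were) and 1 was lower (4.32% of all genes were). In 5 of the 22 every transgenic value was above every LXR DKO value (11.3% of all genes), and in 2 below (6.88% of all genes). Foxl2, the transcription factor gene that maintains granulosa identity, measured 5.27, 3.33 and 3.66 RPKM in LXR DKO against 3.53, 3.60 and 4.40 RPKM in the transgenic libraries (-0.06 ± 0.16, limma adjusted p = 0.939). Fshr, the FSH receptor gene, measured 9.36, 4.93 and 6.69 RPKM against 6.52, 6.68 and 6.53 RPKM (-0.04 ± 0.19, adjusted p = 0.965). Both overlapped. Lhcgr, the LH receptor gene, measured 1.47, 1.15 and 1.498 RPKM against 0.680, 0.509 and 1.06 RPKM (-0.45 ± 0.15, adjusted p = 0.23). Its values did not overlap and the difference did not pass.

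Progesterone genes did not pass either: 0 of 17 tested, with a median of -0.08. By an unadjusted p under 0.05, 2 were lower (4.32% of all genes were) and 0 higher (9.51% of all genes were). In 4 of the 17 every transgenic value was below every LXR DKO value (6.88% of all genes), and in 1 above (11.3% of all genes). The 20 listed genes summed to 8043, 7694 and 7797 RPKM in LXR DKO against 6765, 6953 and 6161 RPKM in the transgenic libraries, without overlap. In WT the sums were 6733, 8075 and 6329 RPKM. Star, which brings cholesterol into mitochondria, measured 49.5, 74.7 and 76.8 RPKM in LXR DKO against 68.0, 85.0 and 56.0 RPKM in the transgenic libraries, against 112, 134 and 108 RPKM in WT (0.06 ± 0.21, limma adjusted p = 0.95). Cyp11a1 differed by -0.14 ± 0.13 (adjusted p = 0.739). Of 26 cumulus expansion and ovulation genes 16 were tested and 1 passed as lower (0.277% of all genes were). Vcan, the versican of the expanding cumulus matrix, fell from 36.3, 41.1 and 43.5 RPKM to 27.8, 26.4 and 24.4 RPKM (-0.60 ± 0.09, adjusted p = 0.0487), without overlap. Its adjusted p reached 0.202 in omissions. Tnfaip6, which links hyaluronan into that matrix, measured 107, 114 and 89.7 RPKM against 136, 158 and 111 RPKM, with 450, 391 and 324 RPKM in WT (0.37 ± 0.15, adjusted p = 0.32). Summed over the 12 cumulus and granulosa markers, the level was 795, 561 and 594 RPKM in LXR DKO against 651, 748 and 604 RPKM in the transgenic libraries, which overlapped.

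Extracellular proteins with large falls were A2m, Pxdn and Col6a1. A2m, which encodes the protease trap alpha-2-macroglobulin, fell from 14.3, 22.4 and 21.8 RPKM in LXR DKO to 3.78, 4.06 and 3.97 RPKM in transgenic libraries. The transgenic values lay close to 2.92, 2.77 and 1.90 RPKM in WT and far from LXR DKO. The mean ratio of LXR DKO to transgenic libraries was 4.95 in linear RPKM (-2.03 ± 0.17, limma adjusted p = 0.00465, at most 0.0495 in omissions). Pxdn, a peroxidase that cross-links collagen IV, fell from 9.20, 9.84 and 11.9 RPKM to 3.24, 3.25 and 3.23 RPKM, with 2.69, 2.77 and 1.76 RPKM in WT (-1.41 ± 0.11, adjusted p = 0.00461, at most 0.0465). Col6a1, a chain of the microfibrillar collagen VI, fell from 38.6, 36.2 and 37.6 RPKM to 18.9, 20.3 and 18.2 RPKM (-0.94 ± 0.08, adjusted p = 0.00465). It was the only 1 of 28 matrix genes tested to pass (0.277% of all genes fell). Its adjusted p was 0.0571 without transgenic 1 and under 0.05 in the other 5 omissions.

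The zinc finger gene Zfp983 fell from 22.8, 17.9 and 20.4 RPKM to 7.04, 6.72 and 7.92 RPKM (-1.38 ± 0.11, limma adjusted p = 0.00461), with 17.8, 24.1 and 10.8 RPKM in WT, and passed in all 6 omissions. Grxcr2, a glutaredoxin-like gene, fell from 3.94, 2.27 and 2.43 RPKM to 0.328, 0.230 and 0.658 RPKM (-1.45 ± 0.20, adjusted p = 0.0283, up to 0.144 in omissions). Bambi, a decoy receptor that dampens BMP and TGF-beta signals, rose from 3.13, 2.84 and 2.83 RPKM to 6.24, 5.56 and 5.36 RPKM (0.77 ± 0.10, adjusted p = 0.0251, up to 0.14 in omissions). It was the only 1 of 32 BMP, TGF-beta and activin genes tested to pass (0.339% of all genes rose), and the median of the list was 0.06. In WT it measured 3.03, 3.60 and 7.64 RPKM, the last in WT 3, the WT library with most oviduct RNA. Esam, an endothelial adhesion gene, rose from 0.640, 0.990 and 0.829 RPKM to 2.24, 3.18 and 2.48 RPKM (0.99 ± 0.14, adjusted p = 0.0325, up to 0.146). The other endothelial marker tested, Pecam1, measured 2.84, 1.24 and 3.16 RPKM against 1.45, 1.60 and 1.38 RPKM (-0.41 ± 0.23, adjusted p = 0.518). In all, 22 of 33 pathway lists and 8 of 13 cell type lists had 0 members past the threshold, among them fatty acid synthesis (18 tested, median -0.06), fatty acid oxidation (23 tested, median -0.05), oxidative phosphorylation (26 tested, median 0.03), glycolysis (22 tested, median 0.06), the cell cycle (31 tested, median -0.16), WNT signalling (25 tested, median 0.14) and the unfolded protein response (23 tested, median 0.13). At an unadjusted p under 0.05 these 7 lists had 2, 2, 0, 1, 3, 9 and 10 members, where 13.8% of all genes had one. The 9 WNT genes were 7 higher and 2 lower, and the 10 of the unfolded protein response 7 higher and 3 lower. With voom 1 WNT gene passed as higher, and without LXR DKO 2 there were 3 genes of the unfolded protein response.

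The called genes were unevenly spread over the genome. Chromosome 12 held 21 of the 98, which was 3.29% of its 639 tested genes, against 0.504% of the 15271 genes on all other chromosomes. Chromosome 17 held 11 (1.38%), chromosome 11 held 13 (1.07%) and chromosome 6 held 8 (0.972%), while chromosomes 1, 14, 19 and Y held 0. In windows of 10 Mb, 10 of 278 windows had at least 3 called genes and together held 40 of the 98. Of these, 4 were on chromosome 12, and the highest shares were 11.4% of 35 tested genes between 20 and 30 Mb of chromosome 12 and 11.1% of 27 between 10 and 20 Mb of chromosome 6, the window of Cav1. Adi1 and Pxdn lie on chromosome 12 with opposite changes.

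A run of genes on chromosome 12 was chosen after its values were seen. Between 87644118 and 88274500 lie 6 called genes with provisional names, 5 of them annotated as protein-coding, and no other of the 102 tested genes between Ttc9 and Adck1 passed. In LXR DKO libraries they measured 0 to 1.66 RPKM, in transgenic libraries 1.01 to 9.31 RPKM and in WT libraries 0.367 to 10.3 RPKM. Gm16381, the one with the largest change, measured 1.14, 1.13 and 1.27 RPKM in LXR DKO, 9.31, 7.29 and 5.98 RPKM in transgenic libraries and 7.77, 10.3 and 5.54 RPKM in WT. Transgenic and WT values of it overlapped and LXR DKO lay below both. Log2 fold changes of the 6 were 1.02 to 1.95 (limma adjusted p = 0.00461 to 0.016). The genes of such runs can be near-identical copies, among which reads cannot always be assigned, so the value of each is uncertain.

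**Figure D5:**
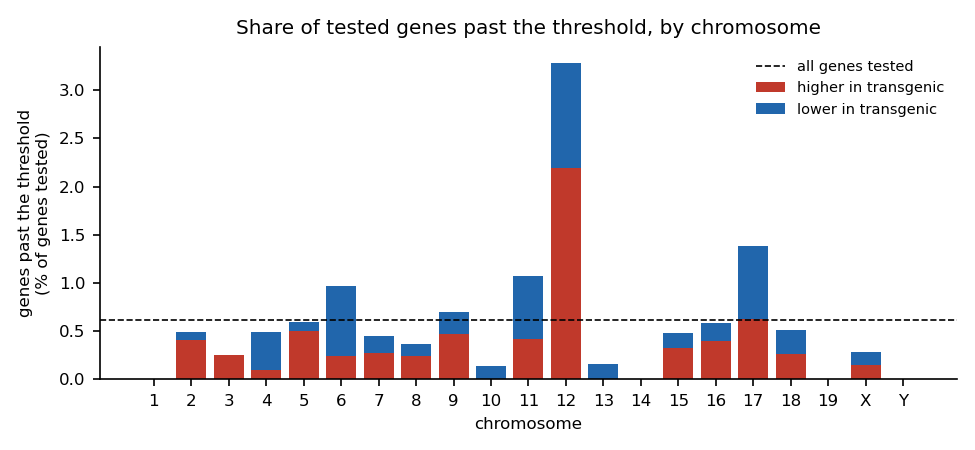
Share of the genes tested on each chromosome (x axis) that passed the threshold, in percent (y axis), with genes higher in transgenic libraries in red and lower in blue. The dashed line is the share over all genes, 0.616%, and chromosome 12 reaches 3.29%.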

How the data were processed

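The authors deposited 1 matrix of RPKM values for 9 libraries and 54838 genes, whose column names gave the samples. The transgenic column names differ from the labels in 1 letter. Tools named in the submitters' processing notes, with no roles, are HTSeq 0.5.4p5, HISAT2 2.1.0, cutadapt and DESeq2 1.2.8, and the build is mm10. The sources used here give neither the strand setting nor the treatment of multiply mapped reads, so near-identical and overlapping genes are uncertain. With GENCODE M21 exon lengths, 37146 of 37863 genes gave whole reads within 0.02 reads, and those reads gave the depths. Each of the 2 genotypes compared has 3 libraries.

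Values were analysed as log2(RPKM + 1) in limma 3.58.1 (R 4.3.3) on the 6 libraries, with a mean-variance trend, no covariate and Benjamini-Hochberg adjustment over 15910 genes (threshold 0.05). The script was tested on simulated data. Genes were named by a rule: the receptors and Amh, the 15 largest called changes each way without provisional names or pseudogenes, and for each list up to 4 called members, its first 2 members and, for cell types, its most abundant member. Not every gene so given is printed, and some are not reported here. Genes outside the rule are said to be chosen after their values were seen, or are members of a list or neighbours of Cav1 that show its spread. The comparison, the 33 pathway lists and the 13 cell type lists were chosen with earlier results of these data known. The 16 alternatives covered the pseudocount, the filter, scaling, the libraries in the fit, a replicate block, voom and omission of each library. The smallest p an exact permutation test of 3 against 3 can give is 0.1, so single genes were not tested that way.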

Additional observations from a re-analysis of the deposited data

How the results depend on the processing

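When 1 library was left out, the counts of 54 higher and 44 lower genes ranged from 6 to 130 higher and from 6 to 110 lower. With no filter on low values (36219 genes tested) they were 13 and 9, with a mean RPKM of at least 5 (9793 genes tested) 32 and 26, and with all 9 libraries in the fit 9 and 10. The replicate block moved them most, to 2 higher and 2 lower, Cav2 and Gpx3 among them, and Cav1 lost its call there (adjusted p = 0.0511). Deviations of same-numbered libraries from their group means correlated at -0.23, -0.29 and -0.0077, and no library correlated best with its own number. Deviations from a mean of 3 libraries are bound to each other and follow single outlying libraries. They cannot show whether same-numbered libraries were prepared together, so the block fit is not set aside by them. A pseudocount of 0.1 or 5, quantile normalization, median-of-ratios scaling, voom and the fit with no trend kept both counts within 1.5 times (45 to 75 higher and 42 to 65 lower). Of the 41 called genes named, 31 lost their call with no filter, 31 with all 9 libraries and 39 under the block. The cause of these losses was not tested. Directions reversed only for uncalled genes near 0. Cavin1 was -0.002 with median-of-ratios scaling. Over the omissions Cavin1 ranged from -0.32 to 0.34, Foxl2 from -0.16 to 0.10, Fshr from -0.24 to 0.17 and Star from -0.14 to 0.21, with signs other than the main ones without LXR DKO 2 or transgenic 1 or 3 (Cavin1), LXR DKO 1 (Foxl2 and Fshr) and LXR DKO 1 or transgenic 2 (Star). In LXR DKO 1, oocyte RNA limits genes that oocytes express, and genes under 3 reads could not be compared.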
